A study of Homo sapiens with 8 samples.

Results

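NR0B1, NKX2-2, CCND1, STEAP1, PRKCB, BCL11B, SOX2, GLI1 and VRK1 are genes known as direct targets of the EWSR1::FLI1 fusion in Ewing sarcoma. These 9 genes were taken by symbol from the 60332 genes of the expression table, with the row of highest mean level where a symbol had several rows. The RNA came from 2 cell lines established from Ewing sarcoma, RD-ES and SK-N-MC, which carry the EWSR1::FLI1 fusion, and gene levels are in FPKM (read numbers scaled by transcript length and by library size). There were 4 groups of 2 libraries each: RD-ES control, RD-ES eKD2, SK-N-MC control and SK-N-MC eKD2. In eKD2 cells, dCas9-KRAB (a non-cutting Cas9 joined to a repressor domain) was expressed with a guide directed beside a repeat in an enhancer of LOXHD1. Per the labels, control cells had received the empty dCas9-KRAB virus, whereas the paper calls them parental. Virus was given at a multiplicity of infection of 10, and puromycin selection lasted 3 days at 1 µg/ml. The infected cells were pools and not single clones, and the fusion itself was left in place in all 4 groups. The libraries of a group are called biological duplicates in the study's methods, but the labels do not say that they came from separate cultures, so the p-values measure the spread between these libraries.

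EWSR1::FLI1 joins the activating part of EWSR1 to the DNA-binding domain of the ETS factor FLI1. It binds runs of the 4-base unit GGAA, where several copies of the fusion can sit side by side and turn a silent repeat into an enhancer, and it also binds single ETS motifs near promoters. Many of the genes it activates encode transcription factors and growth regulators, so their RNA is often read as a measure of fusion activity.

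The repeat runs near the target genes show the sequence class that the fusion is known to bind. Runs of at least 4 perfect GGAA units, on either strand and counted without overlap, were searched in the reference genome GRCh37 within 100 kb of the outermost annotated 5′ end of 8 of the genes, all but VRK1. NR0B1 is shown because its run was the closest to a 5′ end, NKX2-2 because its run was the longest, and STEAP1 because its RNA was lower in the eKD2 libraries of both lines. Capitals mark the run, and the lower-case letters are the 40 flanking bases on each side, all read 5′ to 3′ on the strand that carries GGAA.
NR0B1: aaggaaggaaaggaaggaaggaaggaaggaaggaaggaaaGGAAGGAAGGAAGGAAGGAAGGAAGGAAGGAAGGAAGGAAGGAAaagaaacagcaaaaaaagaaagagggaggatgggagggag
NKX2-2: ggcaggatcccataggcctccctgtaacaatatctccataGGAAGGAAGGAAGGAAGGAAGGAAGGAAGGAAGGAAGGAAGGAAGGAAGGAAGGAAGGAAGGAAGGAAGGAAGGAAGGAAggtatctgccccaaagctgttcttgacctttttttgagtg
STEAP1: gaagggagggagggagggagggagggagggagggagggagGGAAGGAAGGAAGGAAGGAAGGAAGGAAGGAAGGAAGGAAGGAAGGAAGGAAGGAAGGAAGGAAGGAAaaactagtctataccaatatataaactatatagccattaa

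The NR0B1 run had 11 units at chrX:30328875-30328918 (minus strand), 1.39 kb upstream of the gene. The flank printed before it holds further GGAA units, parted by single bases, so the repeat there is longer than its perfect run. The NKX2-2 run had 20 units at chr20:21556922-21557001 (minus strand), 62.3 kb upstream. The STEAP1 run had 17 units at chr7:89837728-89837795 (plus strand), 54.0 kb downstream of the 5′ end and beyond the end of the gene. None of these runs lay inside the gene it was assigned to.

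Of the other genes, CCND1 had a run of 15 units at 19.0 kb upstream, SOX2 one of 13 units at 38.3 kb upstream and PRKCB one of 16 units at 86.9 kb upstream. BCL11B and GLI1 had no run of 4 or more units in the window. Thus 6 of these 8 genes had a run of at least 4 units, the minimum searched, against 54.33% of the 15009 tested genes that could be searched. The same 6 had at least 11 units, against 16.5%, but that cutoff is the shortest of their own runs and was set by it. At 12 units it was 5 of 8, against 13.94%. The genes were listed as direct targets of a fusion that binds such runs, so a higher share than background is not an independent result. These counts describe the reference sequence, the lengths in RD-ES and SK-N-MC can differ from it, and no binding was measured in these RNA data.

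**Figure D1:**
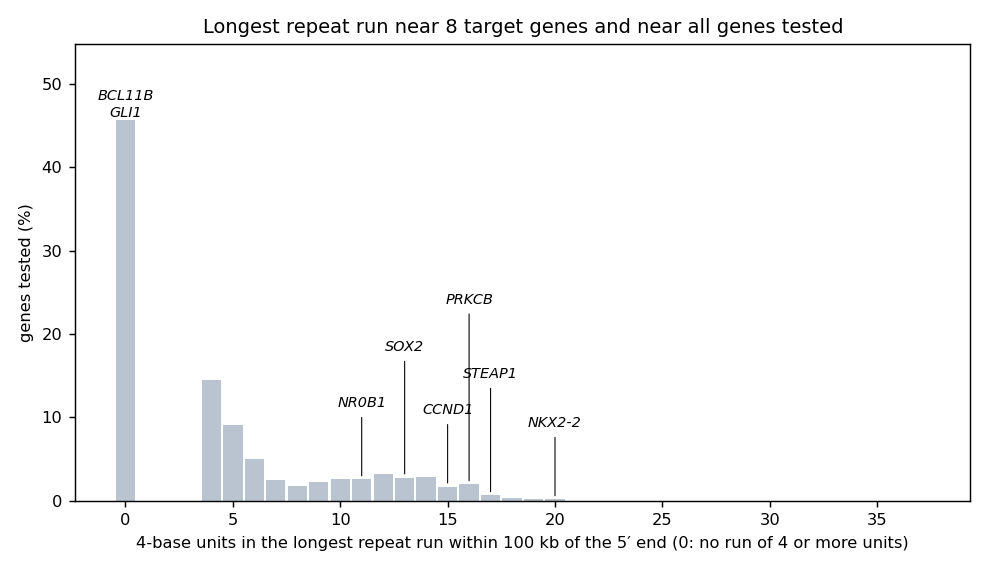
Longest run of the 4-base unit near each gene (horizontal axis, units within 100 kb of the 5′ end, 0 where no run reached 4 units) against the percentage of the 15009 searched genes (vertical axis). The lines mark 8 target genes, 6 of them at 11 to 20 units and BCL11B and GLI1 at 0.

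LOXHD1, the gene whose enhancer was targeted, fell in both lines, from 21.4 and 21.2 FPKM to 1.04 and 1.02 FPKM in RD-ES and from 159 and 169 FPKM to 11.0 and 12.0 FPKM in SK-N-MC cells (adjusted p = 0.00011 and 3.7e-05, limma). Depth estimated from the steps of low FPKM values was 7.49 to 30.03 M (mega) reads, lowest in RD-ES eKD2 replicate 1. The Ewing sarcoma markers CD99, FLI1 and EWSR1 were above 1 FPKM in every group, and the muscle genes MYOD1, MYOG and DES, with the T cell gene CD3E, were below it. The summed level of 3 blood markers was 1.18 to 4.18 FPKM in RD-ES and 19.9 to 23.2 FPKM in SK-N-MC, and that of 4 stromal markers 9.65 to 13.4 FPKM in RD-ES and 272 to 300 FPKM in SK-N-MC. The blood sum in SK-N-MC was almost all PTPRC (19.2 to 22.6 FPKM), with CD68 at 0.642 to 1.27 FPKM. The 3 epithelial markers summed to 12.7 FPKM in RD-ES eKD2 replicate 1, to 1.53 to 1.84 FPKM in the other RD-ES libraries and to 4.94 to 6.28 FPKM in SK-N-MC. The endothelial markers CDH5 and VWF to less than 1 FPKM in every library. The part of these markers in the differences between the lines was not tested.

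All 9 target genes were detected above 1 FPKM in every library, and their order of level differed between the lines. In both RD-ES groups the order was CCND1, VRK1, STEAP1, SOX2, NKX2-2, BCL11B, PRKCB, GLI1 and NR0B1, and no neighbours in this order overlapped between libraries. In SK-N-MC control libraries it was CCND1, PRKCB, VRK1, STEAP1, SOX2, NR0B1, BCL11B, NKX2-2 and GLI1. SOX2 and NR0B1 overlapped there and also in SK-N-MC eKD2 libraries, where GLI1 stood above NKX2-2. FPKM is a level per length of transcript, so these orders compare genes on that scale.

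**Figure D2:**
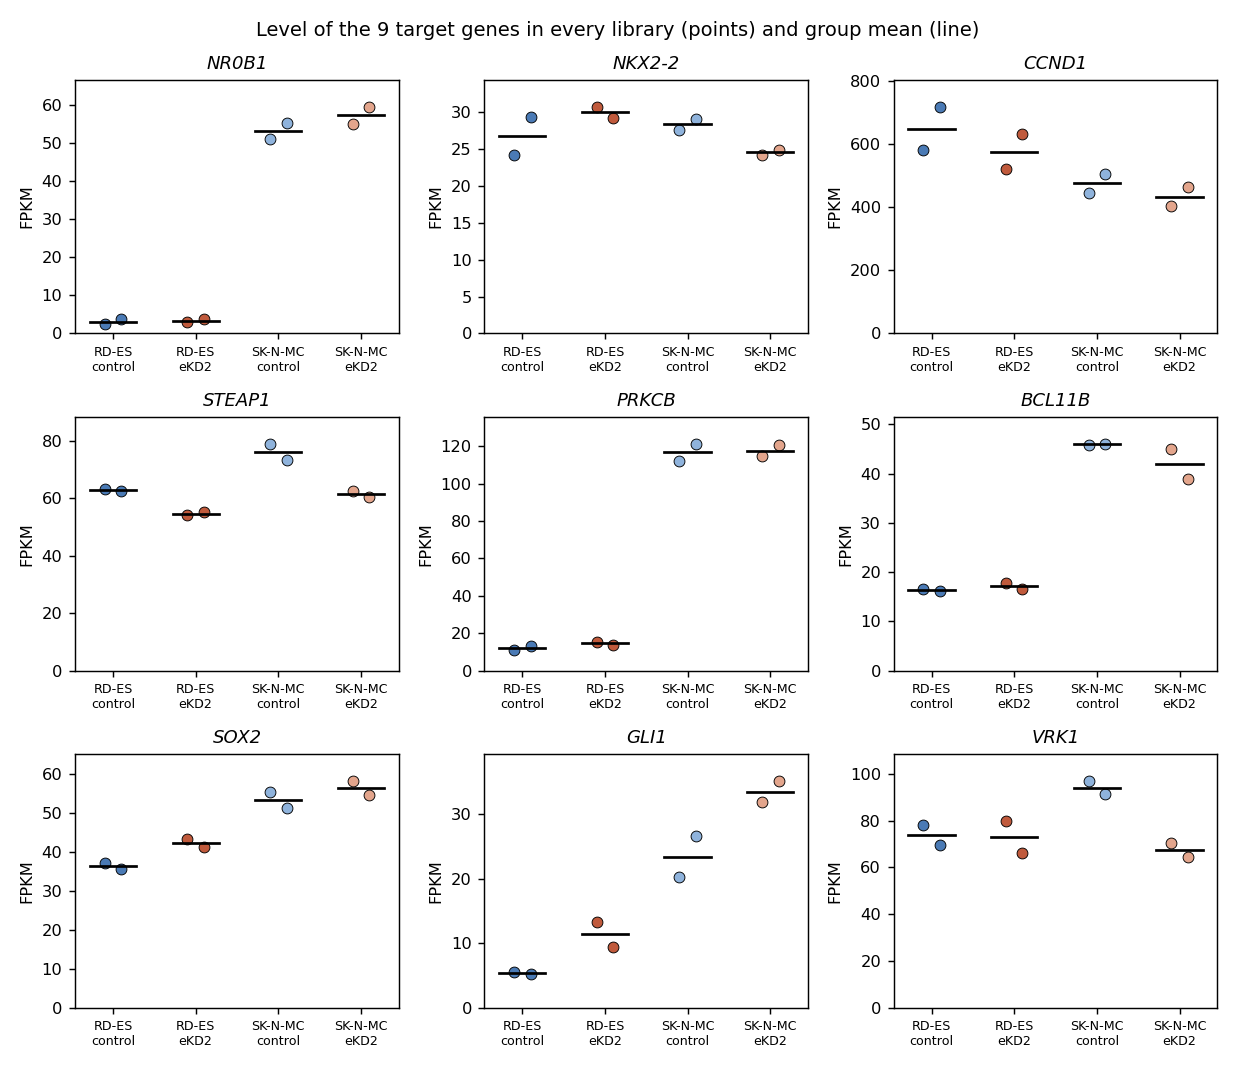
FPKM of each target gene (vertical axis, from 0, with its own scale per gene) in the 4 groups (horizontal axis), with 1 point per library and a line at the mean of 2 libraries. NR0B1, PRKCB, BCL11B and GLI1 differ most between the lines, and GLI1 is higher in eKD2 than in control libraries of both lines.

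With the enhancer intact, the lines differed in most of the target genes. In control SK-N-MC against control RD-ES, 8 of the 9 genes passed an adjusted p of 0.05 (limma on log2(FPKM + 1)), 7 higher and 1 lower in SK-N-MC, in a comparison where 57.8% of 15175 tested genes passed. The share of all genes was 31.4% for higher and 26.4% for lower. In bulk RNA, fewer cells that express a gene and less RNA per cell cannot be told apart.

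NR0B1, an orphan nuclear receptor that acts as a corepressor, stood at 2.38 and 3.77 FPKM in RD-ES controls against 51.0 and 55.2 FPKM in SK-N-MC controls. The mean was 17.3-fold higher in SK-N-MC (log2 fold change 3.75 ± 0.18 SE, limma adjusted p = 3.2e-05). The RD-ES values rest on few reads, with an estimate of 35.5 to 100.2 reads per RD-ES library. PRKCB, the beta isoform of protein kinase C, was at 11.0 and 13.1 FPKM in RD-ES and 112 and 121 FPKM in SK-N-MC. Its mean was 9.65-fold higher in SK-N-MC, with a log2 fold change of 3.17 ± 0.11 (SE, limma adjusted p = 9.0e-06).

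GLI1, the zinc finger effector of the Hedgehog pathway, was at 5.60 and 5.25 FPKM in RD-ES control and 20.2 and 26.6 FPKM in SK-N-MC control libraries, a 4.32-fold higher mean (limma adjusted p = 0.00038). BCL11B, a zinc finger transcription factor known from T cell and neuron development, was at 16.6 and 16.1 FPKM in RD-ES and 45.8 and 46.0 FPKM in SK-N-MC, 2.81-fold higher (limma adjusted p = 7.4e-05). These 4 genes held the larger differences between the lines, and the libraries of the lines did not overlap in 8 of the 9 genes, as in 79.8% of all tested genes.

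The other genes were closer in level. SOX2, a transcription factor of stem and neural progenitor cells, was 1.46-fold higher in SK-N-MC (36.4 ± 1.13 against 53.2 ± 2.86 FPKM, SD, n = 2 libraries, limma adjusted p = 0.0015). STEAP1, a membrane protein of the STEAP family, was 1.21-fold higher (limma adjusted p = 0.013), and VRK1, a serine-threonine kinase of chromatin and cell division, 1.27-fold higher (limma adjusted p = 0.039). CCND1, the cyclin D1 gene that drives entry into the cell cycle with CDK4 and CDK6, was 26.7% lower in SK-N-MC (649 ± 97.4 against 476 ± 43.3 FPKM, SD, n = 2 libraries, limma adjusted p = 0.042). NKX2-2, a homeodomain factor used as a diagnostic marker of Ewing sarcoma, was the 1 gene that did not pass, with a difference of 0.085 on the log2 scale and a 95% interval from -0.17 to 0.34. The calls of CCND1, VRK1 and STEAP1 did not hold under every processing: with median scaling STEAP1 and VRK1 had limma adjusted p of 0.19 and 0.22, and with quantile normalization CCND1 had 0.20. Without SK-N-MC control replicate 1, all 3 calls were lost (limma adjusted p of 0.052 for STEAP1, 0.16 for VRK1 and 0.20 for CCND1). CCND1 and VRK1 were also lost without RD-ES control replicate 2 (0.21 and 0.17), without SK-N-MC control replicate 2 (0.079 and 0.094) and without either eKD2 library of SK-N-MC (0.069 and 0.061), and VRK1 without RD-ES control replicate 1 (0.058). With no filter on low values their limma adjusted p was 0.092 and 0.070, and with no trend 0.061 and 0.056.

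When the LOXHD1 enhancer was silenced, none of the target genes passed an adjusted p of 0.05 in either line, so the comparison gave no call for or against a change in them. In RD-ES 0 of 9 passed, against 0.343% of all tested genes, and 4 of 9 had an unadjusted p under 0.05, against 12.3%. Of these 4, 3 were higher (8.49% of all genes) and 1 lower (3.79%). In SK-N-MC 0 of 9 passed, against 0.323%, and 3 of 9 had an unadjusted p under 0.05, against 13% of all tested genes, with 1 higher (5.71%) and 2 lower (7.29%). The eKD2 libraries did not overlap with the controls in 4 of 9 genes in RD-ES (39.3% of all genes) and in 5 of 9 in SK-N-MC (47.3% of all genes). The 2 comparisons share no libraries with each other, but each shares its control libraries with the comparison between the lines.

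**Figure D3:**
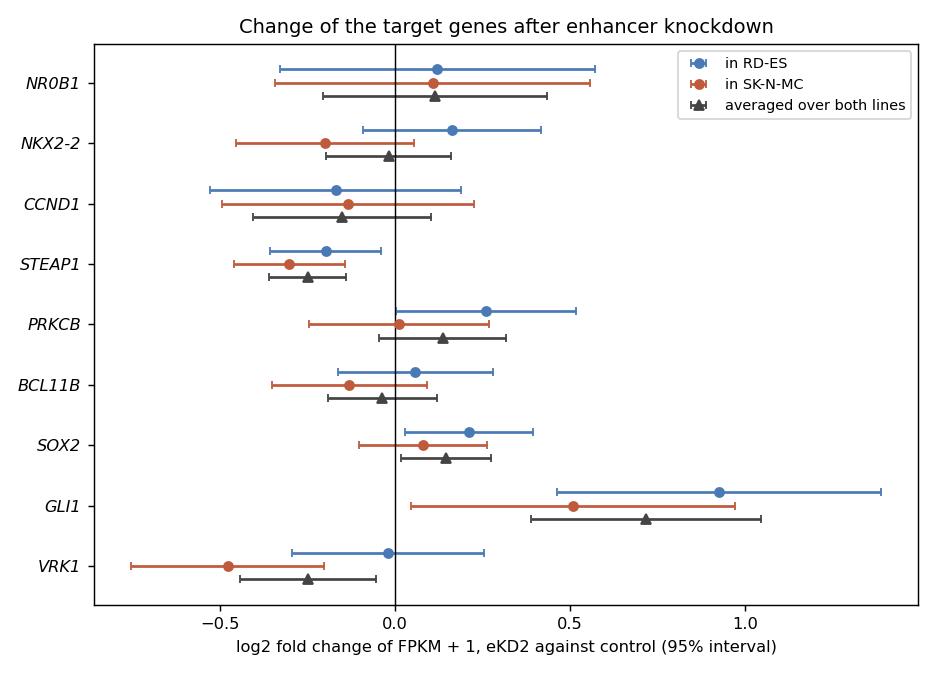
Log2 fold change of FPKM + 1 in eKD2 against control libraries (horizontal axis) for each target gene (vertical axis), with 95% intervals from the limma fit, for RD-ES, SK-N-MC and the average of both lines. The intervals of GLI1 lie above 0 and those of STEAP1 below 0 in both lines, before adjustment for the number of genes tested.

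GLI1 was higher in the eKD2 libraries of both lines. Its level in RD-ES was 5.60 and 5.25 FPKM in its controls against 13.3 and 9.40 FPKM in its eKD2 libraries, and in SK-N-MC it was 20.2 and 26.6 FPKM in its controls against 31.9 and 35.1 FPKM in its eKD2 libraries. Both eKD2 libraries stood above both controls in each line, a pattern seen in 5.64% of all tested genes. No other target gene showed this pattern, and the share carries no test. The RD-ES log2 fold change was 0.93 (95% interval 0.46 to 1.39, limma adjusted p = 0.18), and that of SK-N-MC was 0.51 (0.045 to 0.97, limma adjusted p = 0.35). An unadjusted p under 0.05 with a higher level in both lines was found in 0.85% of genes. Averaged over both lines, the log2 fold change was 0.72 (SE 0.13, limma adjusted p = 0.13), and the SK-N-MC change less the RD-ES change was -0.42 (95% interval -1.07 to 0.24). In RD-ES the GLI1 values rest on an estimated 274 to 513 reads per library. The higher RD-ES eKD2 value came from replicate 1, the library of lowest depth and with the raised epithelial markers (KRT8 at 8.24 FPKM and CDH1 at 3.50 FPKM). Without that library the RD-ES log2 fold change was 0.70 (limma adjusted p = 0.38). Leaving out each library in turn gave 0.70 to 1.16 for RD-ES and 0.32 to 0.70 for SK-N-MC, the lowest without SK-N-MC control replicate 1 (limma adjusted p = 0.68).

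GLI1 lies at chr12:57853568-57866051 on the plus strand (GRCh37), in a crowded region. ARHGAP9, on the opposite strand, shares 5 annotated bases with it, and the TruSeq kit used does not mark strand, so reads of the overlap cannot be assigned to one of them. An annotated long non-coding RNA on the opposite strand (ENSG00000287200) shares 3034 bases with GLI1 and was not analysed here, so the split of reads there is uncertain. ARHGAP9 differed by -0.15 and -0.0057 on the log2 scale in the respective lines. INHBE, an inhibin subunit gene 0.505 kb away, was at 0.211 and 0 FPKM in RD-ES control, 1.08 and 0.339 FPKM in RD-ES eKD2, and in SK-N-MC at 1.51 and 1.57 FPKM (control) and 2.52 and 4.34 FPKM (eKD2). INHBE was therefore higher in both eKD2 libraries of each line, at a low level (limma adjusted p = 0.50 and 0.38). MARS, a methionyl-tRNA synthetase gene 3.18 kb away, differed by -0.070 and 0.14. DDIT3, a stress-response transcription factor 44.3 kb away that was picked after its values were seen, was higher in RD-ES eKD2 (40.4 and 43.1 against 99.2 and 110.3 FPKM, limma adjusted p = 0.0032). SK-N-MC had it at 185 and 190 FPKM in its controls against 139 and 150 FPKM in its eKD2 libraries (limma adjusted p = 0.17).

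PTCH1, the Hedgehog receptor and itself a target of GLI factors, was at 12.5 and 9.20 FPKM without and 14.3 and 16.1 FPKM with the knockdown in RD-ES (log2 fold change 0.46, limma adjusted p = 0.37). In SK-N-MC it was at 30.5 and 32.1 FPKM in its controls against 33.6 and 26.6 FPKM in its eKD2 libraries, which overlapped (log2 fold change -0.065). HHIP, the Hedgehog-interacting protein, was below 1 FPKM in every RD-ES library and at 3.27 to 4.57 FPKM in SK-N-MC. GLI2 was at 11.4 and 12.1 against 11.5 and 15.4 FPKM in RD-ES (0.17) and, without overlap, at 8.49 and 10.4 against 6.30 and 7.85 FPKM in SK-N-MC (-0.37, limma adjusted p = 0.45). GLI3 was at 4.32 and 5.84 against 5.85 and 5.35 FPKM in RD-ES (0.13) and, again without overlap, at 6.86 and 6.95 against 5.46 and 5.45 FPKM in SK-N-MC (-0.29, limma adjusted p = 0.45). Both GLI2 and GLI3 thus stood lower in the eKD2 libraries of SK-N-MC, as did 25.1% of all tested genes. GLI1 stood higher there, as did 22.2%. SMO, the transducer of the pathway, was at 35.6 to 42.1 FPKM in RD-ES libraries and 25.3 to 26.8 FPKM in those of SK-N-MC.

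**Figure D4:**
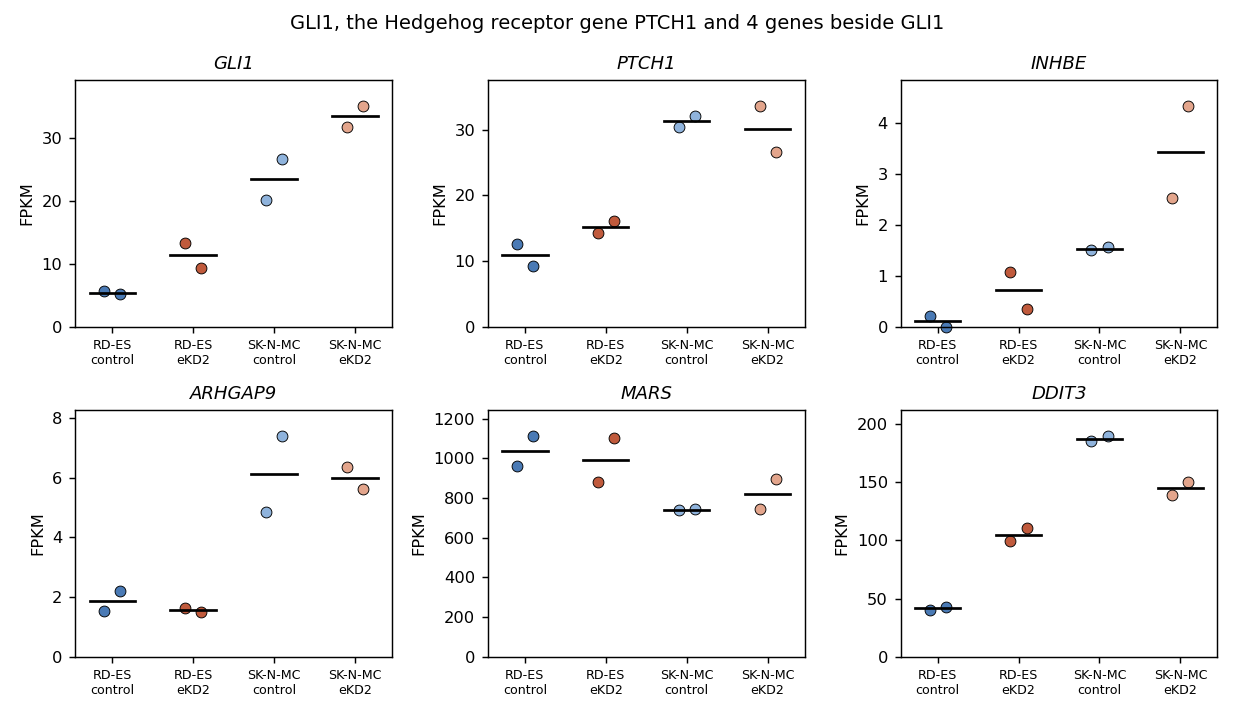
FPKM (vertical axis, from 0, with its own scale per gene) of GLI1, the receptor gene PTCH1 and 4 genes beside GLI1 in the 4 groups, with 1 point per library and a line at the mean of 2 libraries. GLI1 and INHBE are higher in the eKD2 libraries of both lines, and DDIT3 is higher in RD-ES eKD2 and lower in SK-N-MC eKD2.

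STEAP1 was lower in eKD2 libraries of both lines. Its level was 63.2 and 62.4 FPKM without and 54.1 and 55.0 FPKM with the knockdown in RD-ES, and 78.8 and 73.2 FPKM without and 62.3 and 60.5 FPKM with the knockdown in SK-N-MC. All eKD2 libraries stood below the controls of their line, a pattern seen in 4.03% of all tested genes. No other target gene showed this pattern, and the share carries no test. The mean was 13.1% lower in RD-ES (log2 fold change -0.20, 95% interval -0.36 to -0.041, limma adjusted p = 0.31), while the SK-N-MC mean was 19.2% lower (-0.30, -0.46 to -0.14, limma adjusted p = 0.17). An unadjusted p under 0.05 with a lower level in both lines was found in 0.435% of genes. Averaged over both lines the log2 fold change was -0.25 (SE 0.046, limma adjusted p = 0.12). STEAP2-AS1, on the opposite strand across STEAP1, was at 0.298 to 0.738 FPKM, far below STEAP1.

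VRK1 was lower in the eKD2 libraries of SK-N-MC, where its groups did not overlap. In SK-N-MC it was at 96.8 and 91.4 FPKM in its controls against 70.2 and 64.3 FPKM in its eKD2 libraries, 28.5% lower in mean (log2 fold change -0.48, 95% interval -0.75 to -0.20, limma adjusted p = 0.20). RD-ES libraries held 78.0 and 69.8 FPKM in its controls against 79.9 and 66.2 FPKM in its eKD2 libraries, which overlapped (-0.021, -0.30 to 0.25). The SK-N-MC change less the RD-ES change was -0.46 (95% interval -0.85 to -0.069, limma adjusted p = 0.31), so the difference between the lines did not pass.

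NKX2-2 was at 24.2 and 29.4 FPKM without and 30.7 and 29.2 FPKM with the knockdown in RD-ES. In SK-N-MC it was at 27.6 and 29.1 FPKM in its controls against 24.2 and 24.9 FPKM in its eKD2 libraries, without overlap and 13.5% lower in mean (limma adjusted p = 0.49). The SK-N-MC change less the RD-ES change was -0.36 (95% interval -0.72 to -0.0036, limma adjusted p = 0.36). In this test of the difference 0 of 9 genes passed (0.244% of all tested genes) and 2 of 9, VRK1 and NKX2-2, had an unadjusted p under 0.05 (13.5%), both with a lower value in SK-N-MC (9.16%).

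SOX2 was at 37.2 and 35.6 FPKM without and 43.2 and 41.3 FPKM with the knockdown in RD-ES (log2 fold change 0.21, 95% interval 0.028 to 0.39, limma adjusted p = 0.35). In SK-N-MC it was at 55.3 and 51.2 FPKM in its controls against 58.1 and 54.5 FPKM in its eKD2 libraries, which overlapped (0.079, -0.10 to 0.26). SOX2 lies inside the long transcript SOX2-OT, which was at 0.412 to 3.22 FPKM. PRKCB was at 11.0 and 13.1 FPKM without and 15.4 and 13.9 FPKM with the knockdown in RD-ES (0.26, 0.0032 to 0.52, limma adjusted p = 0.40). SK-N-MC had it at 112 and 121 against 115 and 120.4 FPKM (0.012, -0.25 to 0.27). Without overlap in RD-ES, both genes overlapped between the groups of SK-N-MC. With median scaling the RD-ES changes of SOX2 and PRKCB had a limma unadjusted p of 0.16 and 0.091.

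CCND1, the most abundant of the 9 genes, was at 580.2 and 718 FPKM without and 522 and 631 FPKM with the knockdown in RD-ES, and at 445 and 506 against 403 and 463 FPKM in SK-N-MC. The groups overlapped in both lines, with log2 fold changes of -0.17 (95% interval -0.53 to 0.19) and -0.14 (-0.49 to 0.22). In each of the 4 groups the library numbered 1 was below the library numbered 2. The same held for NR0B1, and the reverse order held in all 4 groups for SOX2 and VRK1. Such orders were not counted over all tested genes. LTO1 (ORAOV1 in the table), on the opposite strand, shares 1399 annotated bases with CCND1 and was at 41.7 to 47.4 FPKM in RD-ES, at 43.0 and 44.2 FPKM in SK-N-MC control and at 32.6 and 33.7 FPKM in SK-N-MC eKD2 libraries, so the split of reads between these genes is uncertain.

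NR0B1 and BCL11B were close between control and eKD2 libraries. NR0B1 was at 2.38 and 3.77 against 2.94 and 3.84 FPKM in RD-ES and at 51.0 and 55.2 against 55.1 and 59.6 FPKM in SK-N-MC, overlapping in both. Its log2 fold changes were 0.12 (95% interval -0.33 to 0.57) and 0.11 (-0.34 to 0.56), an interval that spans changes of either sign. BCL11B was at 16.6 and 16.1 against 17.7 and 16.5 FPKM in RD-ES (0.058, -0.16 to 0.28) and at 45.8 and 46.0 against 45.0 and 38.9 FPKM in SK-N-MC (-0.13, -0.35 to 0.091). The BCL11B groups overlapped in RD-ES and did not in SK-N-MC. Averaged over both lines, 0 of the 9 genes passed (0.448% of all tested genes) and 4 had an unadjusted p under 0.05 (12.8%), GLI1 and SOX2 higher (7.36% of all genes) and STEAP1 and VRK1 lower (5.41%).

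The genes of the fusion itself were also measured. EWSR1, whose RNA is not separated from the fusion RNA in a gene level, was at 182 and 179 FPKM without and 134 and 163 FPKM with the knockdown in RD-ES, and at 173 and 170.1 against 134 and 142 FPKM in SK-N-MC. The mean was 17.6% (RD-ES) and 19.7% (SK-N-MC) lower (limma adjusted p = 0.33 and 0.28, unadjusted p = 0.026 and 0.018). All EWSR1 eKD2 libraries stood below the controls of their line, a pattern seen in 4.03% of all tested genes. An unadjusted p under 0.05 with a lower level in both lines was found in 0.435% of genes. Averaged over both lines the EWSR1 log2 fold change was -0.30 (SE 0.069, limma adjusted p = 0.19). FLI1, whose 3′ part is in the fusion, was at 23.9 and 22.9 against 22.9 and 20.3 FPKM in RD-ES and at 25.7 and 26.9 against 24.2 and 23.2 FPKM in SK-N-MC (log2 fold changes -0.11 and -0.15, limma adjusted p = 0.62 and 0.52). Its eKD2 libraries also stood below the controls of their line, though closely in RD-ES (22.855 against 22.888 FPKM).

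Other reported fusion targets were set beside these genes. Of 32 further activated targets 31 were tested, and 0 passed an adjusted p of 0.05 in any eKD2 comparison. In RD-ES 5 were higher and 2 lower at an unadjusted p under 0.05 (median log2 fold change -0.018, against 0.031 over all genes), and in SK-N-MC 2 were higher and 7 lower (median -0.099, against -0.0049). Over all tested genes, 8.49% were higher and 3.79% lower at such a p in RD-ES, and 5.71% and 7.29% in SK-N-MC. In the average of both lines 1 of the activated targets was higher and 5 were lower at such a p (7.36% and 5.41% of all genes). Their median log2 fold change there was -0.062, against 0.017 over all genes. PAX7, a paired-box transcription factor, had the smallest p in RD-ES (-0.57, 31.3 against 20.7 FPKM in mean, limma adjusted p = 0.086), and EZH2, the methyltransferase of Polycomb repressive complex 2, the smallest in SK-N-MC (-0.34, limma adjusted p = 0.14). KDSR, an enzyme of sphingolipid synthesis, differed by 0.22 (RD-ES) and -0.35 (SK-N-MC), and RBM11, an RNA-binding splicing regulator, by 0.27 and -0.14.

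Of 12 reported repressed targets 7 were tested and 0 passed. In RD-ES 1 was higher and 1 lower at an unadjusted p under 0.05, and in SK-N-MC 0 had such a p, against 12.3% and 13% of all tested genes. The median log2 fold changes of these 7 genes were 0.27 and 0.025, against 0.031 and -0.0049 over all genes. CDKN1C, a cyclin-dependent kinase inhibitor, differed by 0.69 and 0.37 on the log2 scale (limma adjusted p = 0.23 and 0.44), and TIMP3, an inhibitor of matrix metalloproteinases, by -0.19 and 0.16. In RD-ES controls CDKN1C, LOX and SPRY1, all among the 7, had means of 0.248, 0.589 and 0.592 FPKM. FOXO1, also of the 7, was at 6.22 and 1.47 FPKM there (log2 fold change 0.27, SE 0.84). The RD-ES median thus rests in part on genes near the floor and on a gene of wide spread. Of 31 paralogs and partners of the 9 genes 24 were tested, with 0 passing. PTCH1 in RD-ES and STEAP2 in SK-N-MC (-0.34, limma adjusted p = 0.26) were the genes with an unadjusted p under 0.05, 1 of 24 in each line against the same shares of all genes. STEAP2 is also among the further activated targets and is counted there too.

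**Figure D5:**
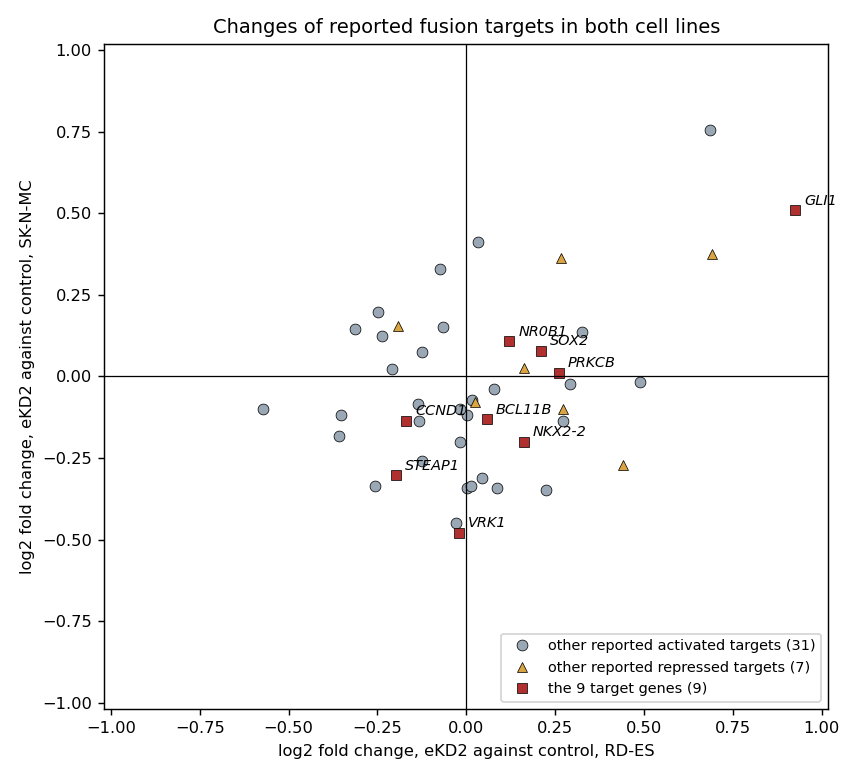
Log2 fold change of eKD2 against control in RD-ES (horizontal axis) and SK-N-MC (vertical axis) for the 9 target genes (squares), 31 other activated targets (circles) and 7 repressed targets (triangles), with 1 point per gene. GLI1 lies at the upper right, with the circle of TNC (0.69 and 0.75) and the triangle of CDKN1C (0.69 and 0.37), STEAP1 at the lower left and VRK1 at the bottom, and the circle furthest to the left is PAX7 (-0.57 and -0.099).

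Between the control lines, 25 of the 31 further activated targets passed an adjusted p of 0.05, 19 higher and 6 lower in SK-N-MC, as did 5 of 7 repressed targets and 17 of 24 paralogs and partners. Over all tested genes 57.8% passed, 31.4% higher and 26.4% lower. Genes were tested if their mean over all 8 libraries was at least 1 FPKM, so a gene high in only 1 line could enter. In control means, CDKN1C was at 0.248 FPKM in RD-ES against 6.90 FPKM in SK-N-MC, and SOX1 at 9.70 against 0.0143 FPKM. For such genes the difference between the lines is part of why they were tested.

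Across the 8 libraries, after the mean of each line was subtracted from log2(FPKM + 1), each target gene was compared with every other tested gene. The gene most like GLI1 was NSUN3 (Pearson r = 0.989), that most like STEAP1 was ETS1 (0.975) and that most like VRK1 was GNAI3 (0.997). For NR0B1 it was ORAI2 (0.988), for NKX2-2 CEPT1 (0.980), for CCND1 CACNA1G (0.996), for PRKCB TTI2 (0.986), for BCL11B MFF (0.987) and for SOX2 USP6NL (0.985). These values describe the closest of 15175 genes over 8 libraries that differ in depth, and they carry no test.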

How the data were processed

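RNA of 8 libraries was analysed, 2 per group, grouped by the sample labels. Per the labels and the study's methods, poly-A RNA was aligned to GRCh37 with STAR, and the authors made the deposited FPKM values with cufflinks and cuffnorm, which normalise for transcript length and library size. Read counts, on which the study's DESeq2 test ran, were not used here. All value columns were mapped to samples.

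From the FPKM values, limma 3.58.1 in R 4.3.3 (lmFit and eBayes with trend) was run on log2(FPKM + 1) over 15175 genes averaging 1 FPKM or more, with 4 groups in 1 fit and Benjamini-Hochberg adjustment over all genes tested. Fold changes on this scale understate those of low genes. For 2 against 2 libraries, 0.333 is the smallest two-sided p of an exact permutation test. Fits were tested on simulated data. The table holds no depth, which was estimated from whole-read steps (81.0 to 87.7% of low values within 0.05 of a whole read) and is rough. Estimated reads use the longest annotated transcript. Repeat runs were read from the GRCh37 genome with the GENCODE lift of release 44 annotation.

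The target genes and lists were chosen with earlier results of these data known. Named genes are the 9 target genes, LOXHD1, EWSR1, FLI1, the most alike gene of each and, per list, at most the 4 with the smallest p in an eKD2 comparison. Other genes (HHIP, GLI2, GLI3 and SMO of the Hedgehog pathway, TNC, LOX, FOXO1, and the genes that overlap or neighbour a target gene) were named after their values were seen. Lists in the comparison of the lines are given by counts, with CDKN1C and SOX1 named after their values were seen. Alternatives covered the pseudocount, the filter, scaling, the fit, short genes, the replicate block and leaving out each library. Markers were CD99, FLI1, EWSR1 (Ewing sarcoma), PTPRC, CD3E, CD68 (blood), MYOD1, MYOG, DES (muscle), EPCAM, KRT8, CDH1 (epithelium), COL1A1, COL3A1, DCN, LUM (stroma) and CDH5, VWF (endothelium), with PECAM1 not analysed here. A further blood marker and the repeat run of VRK1 are not reported here.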

Additional observations from a re-analysis of the deposited data

How the results depend on the processing

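With 2 libraries per group, small changes of a gene could not be called, and NR0B1 in RD-ES rests on few reads. In no alternative did a target gene pass an adjusted p of 0.05 in an eKD2 comparison. GLI1 in RD-ES, STEAP1 in SK-N-MC and VRK1 in SK-N-MC kept an unadjusted p under 0.05 in all 18 alternatives. STEAP1 in RD-ES kept it in 16, SOX2 in RD-ES in 14, GLI1 in SK-N-MC in 12 and PRKCB in RD-ES in 6. Signs turned for small changes, and the cause was not tested. With median scaling BCL11B in RD-ES was -0.010, the NR0B1 difference between the lines' changes 0.051 and NKX2-2 between control lines -0.059. With quantile normalization BCL11B in RD-ES was -0.00698, and the differences between the lines' changes were 0.11 for NR0B1 and -0.016 for CCND1. Leaving out 1 library gave -0.13 to 0.37 for NR0B1 and -0.15 to 0.11 for VRK1 in RD-ES, -0.043 to 0.067 for PRKCB in SK-N-MC, and, averaged over both lines, -0.0098 to 0.24 for NR0B1, -0.087 to 0.049 for NKX2-2 and -0.087 to 0.015 for BCL11B. For the SK-N-MC change less the RD-ES change it gave -0.26 to 0.23 for NR0B1 and -0.12 to 0.19 for CCND1, and for NKX2-2 between control lines -0.051 to 0.22. Target genes called between the control lines numbered 5 to 8, with 5 without SK-N-MC control replicate 1, against 8, and 6 with no filter, with median scaling or with no trend. At an unadjusted p under 0.05, 4 target genes in RD-ES became 2 under median scaling or quantile normalization, 2 without RD-ES control replicate 1 and 1 without RD-ES eKD2 replicate 1, and the 2 genes of the difference between the lines became 0 and 1 under these scalings, 1 with no trend, 1 without RD-ES control replicate 1, and 0 without RD-ES eKD2 replicate 1, without either SK-N-MC control library or without SK-N-MC eKD2 replicate 2.

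Over all genes, 52 passed in RD-ES, against 79 with no filter and 1 with each line fitted alone, and 27 to 71 with 1 library left out. In SK-N-MC 49 passed, against 118 with no filter, 13 with each line alone, 32 without genes under 200 bases and 12 to 76 with 1 library left out. In the difference between the lines 37 passed, against 66 with no filter, 24 at a mean of at least 5 FPKM, 17 without short genes and 54 to 81 with 1 library left out. Of the genes with an unadjusted p under 0.05 in RD-ES, 69.1% were higher in eKD2, against 41.2% with median scaling and 53.7% with quantile normalization, and averaged over both lines 57.6%, 41.8% and 48.7%. In the difference between the lines the share was 32.4%, 56.3% and 43.4%.

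Deviations of libraries with the same number correlated at -0.021 to 0.064 over the pairs of groups. Over all genes the replicate numbers thus showed little pairing, but this cannot show whether some genes share a replicate effect. Of the target genes, CCND1 and NR0B1 were lower in library 1 of all 4 groups, and SOX2 and VRK1 were higher in it. The share of all tested genes with such an order was not counted, so nothing particular to the target genes can be read from it. With the replicate block within each line 11 genes passed in RD-ES, 5 in SK-N-MC, 10 averaged over both lines and 7 in the difference, and with a block shared by both lines, chosen after seeing the data, 45 passed averaged over both lines, against 68, and 22 in the difference. Within the limma fit with the block in each line, CCND1 had adjusted p = 0.30 (RD-ES) and 0.29 (SK-N-MC), with an unadjusted p under 0.05 in both.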
